A study of Mus musculus with 18 samples.

Results

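The genes described are 10 that give the myoepithelial cell of the mammary gland its contractile machinery and its oxytocin receptor: Acta2, Actg2, Tpm2, Cnn1, Tagln, Lmod1, Myh11, Myl9, Mylk and Oxtr. They were taken by symbol, by no threshold on their values, out of 56691 features in the table of an estradiol experiment and 56893 in that of a Torin experiment, and all 10 were found in both. The material was organoids of purified mammary epithelial cells from wild type, nulliparous C57BL/6 mice, with glands of 3 mice used per experiment. In the estradiol experiment, organoids from mice of about 24 weeks received 10 nM estradiol or its solvent ethanol for 11 days and were collected after 12 days of culture. In the Torin experiment, organoids from mice of about 15 weeks received 100 nM Torin 1, which blocks the mTOR kinase, or its solvent DMSO, and were collected after 18 days of culture. This second experiment had arms named D6 and D12, which the sample titles read as 6 and 12 days of treatment and the series design as 12 and 6 days, so no statement here rests on which was longer. Each arm has a batch tag of its own in the labels, 6 or 12 days, so batch, length of treatment and its start cannot be told apart. Each of the 6 groups had 3 libraries, which the labels call replicates without saying whether they came from separate animals or cultures, so p-values measure the spread between these libraries.

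The 6 estradiol experiment libraries held 20637765 to 24312389 counts and the 12 Torin experiment libraries 23239364 to 28910688. Levels are given in CPM, the count of a gene relative to the scaled total of its library, and those of the 2 experiments were scaled separately. Replicate 3 of each Torin group stood apart from its partners: the chi-square per gene between libraries of a group was 107.0 to 131.0 for the pairs of Torin D6 with replicate 3, 44.4 to 48.5 for those of Torin D12, and 3.54 to 18.8 for the 14 other pairs of libraries. The epithelial label was checked against markers. All 27 basal markers outside the contractile genes and all 20 luminal markers averaged at least 1 CPM in both experiments. Of 10 endothelial markers, 6 lay under 1 CPM in the estradiol experiment and 7 in the Torin experiment, and of 11 immune markers 9 lay under it in each. The immune markers not under it were Cd14 and Cd68. The immune list still summed to 632.8 to 707.3 CPM in the estradiol and 2164.6 to 2870.1 CPM in the Torin experiment libraries. Fibroblast markers were present: of 18, 2 averaged under 1 CPM in the estradiol experiment and 0 in the Torin experiment. The basal keratin Krt5 averaged 3780.8 ± 87.5 CPM in estradiol and 3989.8 ± 96.9 CPM in ethanol organoids, 75.3 ± 10.7 CPM in Torin D6 and 688.9 ± 50.6 CPM in DMSO D6 organoids, and 378.5 ± 29.3 CPM in Torin D12 and 825.9 ± 21.6 CPM in DMSO D12 organoids (SD, n = 3 each).

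Myoepithelial cells form the basal layer around the secretory cells of the mammary ducts and alveoli and squeeze milk out of them. Oxytocin binds its receptor on these cells, a G protein-coupled receptor that raises calcium through Gq. Calcium-bound calmodulin then activates myosin light chain kinase, which phosphorylates the regulatory light chain and lets smooth muscle myosin pull on filaments of smooth muscle actin. Many smooth muscle genes are known targets of serum response factor (SRF), which binds the CArG box, a short A- and T-rich core flanked by C and G pairs, together with the coactivators myocardin or MRTF.

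Promoter sequences are shown for 3 of the genes: Acta2 and Myl9 because their sequence holds boxes of the CArG type, and Oxtr because it had the largest Torin effect of the 10. Each is the 250 bases before the annotated start in RefSeq on GRCm38.p6, read 5′ to 3′ on the strand of the gene: Acta2 at chr19:34255374-34255623 (minus strand), Myl9 at chr2:156775214-156775463 (plus strand) and Oxtr at chr6:112489826-112490075 (minus strand). Capitals mark the CArG box and CArG-like boxes with 1 other letter in the core for Acta2 and Myl9, and for Oxtr the arm of the estrogen response element.
Acta2: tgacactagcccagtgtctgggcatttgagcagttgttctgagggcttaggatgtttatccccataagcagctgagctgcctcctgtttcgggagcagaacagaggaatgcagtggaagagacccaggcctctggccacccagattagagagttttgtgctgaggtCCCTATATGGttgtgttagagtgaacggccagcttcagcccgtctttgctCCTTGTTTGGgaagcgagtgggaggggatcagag
Myl9: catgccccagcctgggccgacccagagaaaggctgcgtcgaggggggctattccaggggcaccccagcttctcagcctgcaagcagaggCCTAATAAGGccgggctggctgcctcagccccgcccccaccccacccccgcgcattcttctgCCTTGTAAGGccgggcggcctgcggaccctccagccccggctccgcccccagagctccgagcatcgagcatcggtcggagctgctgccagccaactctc
Oxtr: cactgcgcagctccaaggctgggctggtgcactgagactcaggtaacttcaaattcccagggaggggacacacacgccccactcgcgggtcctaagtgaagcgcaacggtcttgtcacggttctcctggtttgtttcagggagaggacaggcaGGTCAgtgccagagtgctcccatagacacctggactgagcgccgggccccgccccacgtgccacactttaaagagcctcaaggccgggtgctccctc

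The table of promoters matched 7 of the 10 genes (Lmod1, Myl9, Tpm2, Oxtr, Cnn1, Mylk and Acta2). Myh11, Tagln and Actg2 are named only. Both strands of each promoter were searched. A CArG box lay in 1 of the 7, Myl9, at 161 to 152 bases before the start, and in 1.47% of all 32851 promoters of the same length. The looser form with 1 other letter in the core lay in 2 of the 7, against 7.24% of all promoters: at 84 to 75 and at 34 to 25 bases before the start of Acta2, and at 99 to 90 before that of Myl9. The palindromic estrogen response element, GGTCA and TGACC spaced by 3 bases, lay in 0 of the 7 and in 0.0639% of all promoters. Its single arm TGACC lay in 4 of the 7 (Lmod1, Tpm2, Mylk and, on the opposite strand at 97 to 93 bases before the start, Oxtr), and in 35.2% of all promoters. These matches are letters in a window and say nothing of binding, and a missing match says only that the letters are not in the window.

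With estradiol, most of the contractile genes and the oxytocin receptor were lower together. Of the 10 genes, 9 fell and 0 rose in estradiol against ethanol organoids, while 16.6% of the 15358 genes tested fell and 34.0% were called in either direction (edgeR quasi-likelihood test, Benjamini-Hochberg adjusted p under 0.05). The same 9 genes had every estradiol library below every ethanol library, and 46.4% of all genes had groups that did not overlap, in either direction. Their median log2 fold change was -0.52, against -0.01 over all genes. In bulk libraries, fewer myoepithelial cells and less of each RNA per cell cannot be told apart. The summed level of the 10 genes was 894.4 to 970.0 CPM in estradiol libraries, against 1110.0 to 1346.2 CPM in ethanol libraries.

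**Figure D1:**
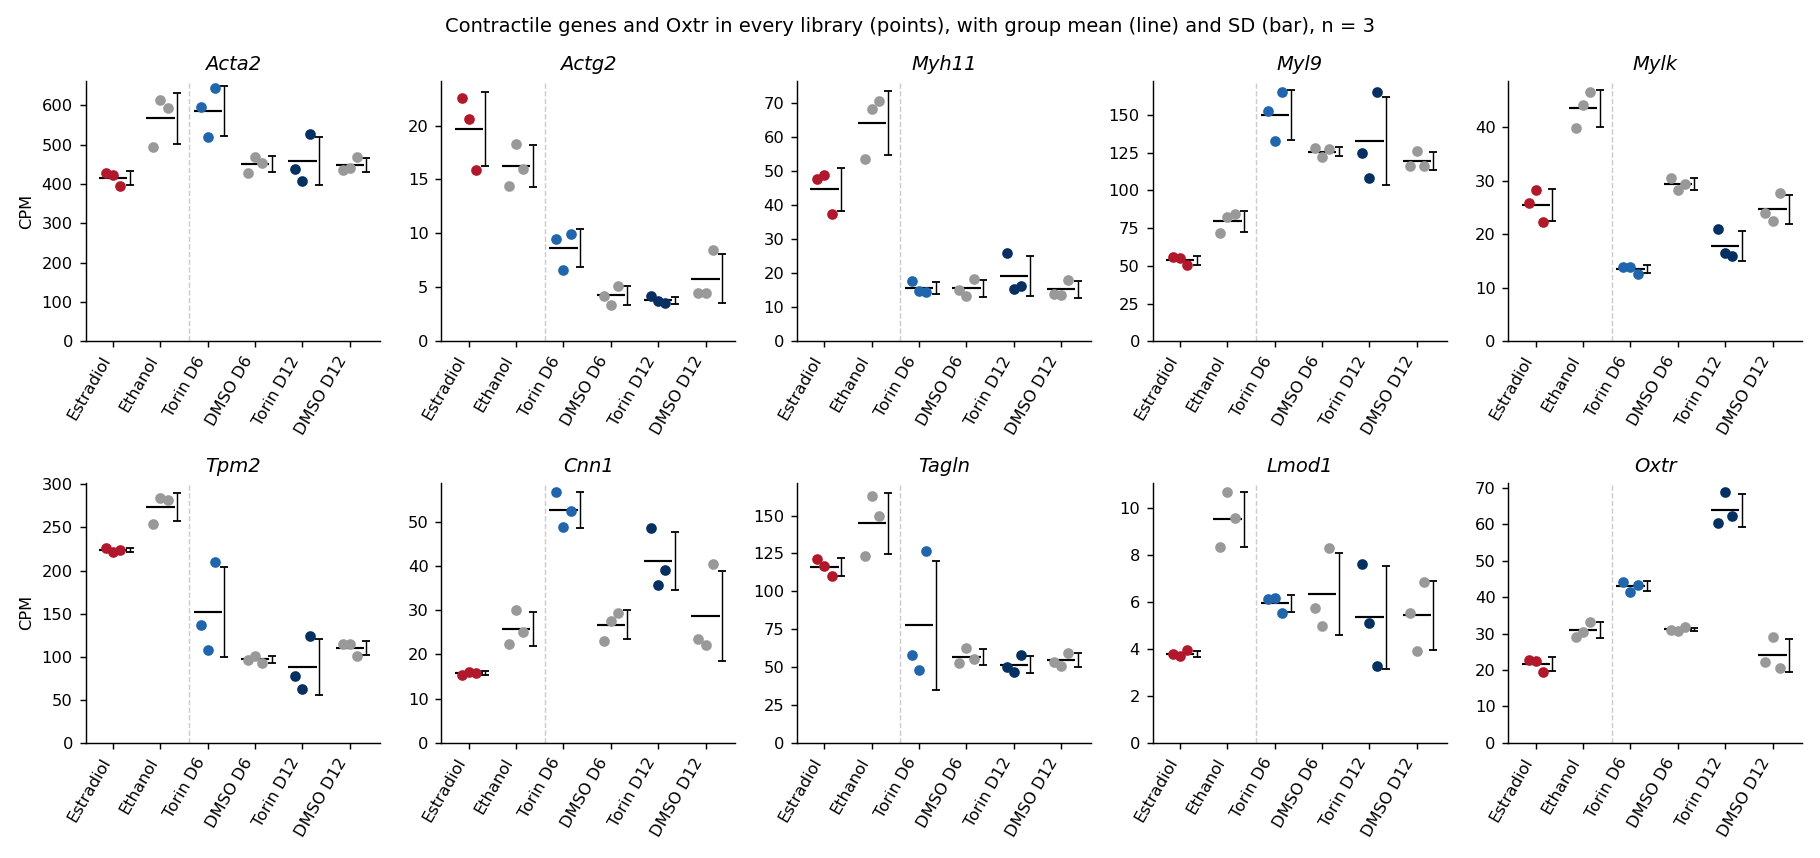
Levels of the 10 genes in CPM on an axis from 0, 1 panel per gene, with 1 point per library, a line at the group mean and a bar for the SD (n = 3), and a dashed line between the experiments. For 9 genes the 3 estradiol points lie below the 3 ethanol points, and Oxtr is at 60.4 to 68.9 CPM in Torin D12, above the other groups of its experiment.

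Oxtr (ENSMUSG00000049112.10), the oxytocin receptor, stood at 22.8, 22.6 and 19.4 CPM in estradiol libraries, against 29.1, 30.4 and 33.3 CPM in ethanol libraries. The groups did not overlap. Its log2 fold change was -0.52 (SE 0.076, edgeR adjusted p = 0.000103), or 0.699 times the ethanol level. Mylk (ENSMUSG00000022836.12), the kinase of the myosin light chain, stood at 25.9, 28.2 and 22.3 CPM in estradiol libraries, against 39.8, 44.2 and 46.5 CPM in ethanol libraries. Again all 3 estradiol libraries lay lower, and the log2 fold change was -0.77 (SE 0.0796, edgeR adjusted p = 3.59e-06). The motor itself moved the same way. Myh11 (ENSMUSG00000018830.11), the smooth muscle myosin heavy chain, had 47.8, 48.9 and 37.4 CPM in estradiol libraries, against 53.5, 68.4 and 70.7 CPM in ethanol libraries, and fell by 0.52 on the log2 scale (SE 0.102, edgeR adjusted p = 0.00112). Myl9 (ENSMUSG00000067818.7), its regulatory light chain, had 55.6, 55.4 and 50.2 CPM in estradiol libraries, against 71.5, 82.6 and 84.0 CPM in ethanol libraries, and fell by 0.56 (SE 0.0621, edgeR adjusted p = 6.87e-06). For both, the nearest ethanol library was replicate 1.

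Among the thin filament genes, Lmod1 (ENSMUSG00000048096.8), leiomodin 1, a nucleator of actin filaments, changed most. It had 3.78, 3.69 and 3.95 CPM in estradiol libraries, against 8.35, 10.7 and 9.57 CPM in ethanol libraries. Its log2 fold change of -1.32 (SE 0.129, edgeR adjusted p = 2.16e-06) left 0.400 times the ethanol level. Cnn1 (ENSMUSG00000001349.6), calponin 1, which binds actin and restrains the myosin motor, had 15.4, 16.1 and 15.9 CPM in estradiol libraries, against 22.3, 30.0 and 25 CPM in ethanol libraries. The estradiol libraries lay within 1 CPM of each other and all below ethanol, with a log2 fold change of -0.71 (SE 0.0963, edgeR adjusted p = 4.95e-05). Acta2 (ENSMUSG00000035783.10), smooth muscle alpha actin and the usual myoepithelial marker, had 428.7, 422.8 and 395.2 CPM in estradiol libraries, against 493.4, 614.7 and 592.1 CPM in ethanol libraries. It fell by 0.45 on the log2 scale (SE 0.0652, edgeR adjusted p = 9.35e-05), and ethanol replicate 1 was the ethanol library closest to estradiol.

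Smaller falls were measured for Tagln (ENSMUSG00000032085.6), transgelin, an actin cross-linker, and for Tpm2 (ENSMUSG00000028464.17), beta tropomyosin, which lies along the actin filament. Tagln averaged 116.1 ± 5.71 CPM in estradiol and 145.0 ± 20.1 CPM in ethanol libraries (SD, n = 3 each), a log2 fold change of -0.32 (SE 0.0774, edgeR adjusted p = 0.00509). Tpm2 averaged 223.7 ± 2.36 CPM in estradiol and 273.7 ± 16.5 CPM in ethanol libraries, a log2 fold change of -0.29 (SE 0.0463, edgeR adjusted p = 0.000208). Actg2 (ENSMUSG00000059430.15), smooth muscle gamma actin, went the other way without passing the threshold: it had 22.6, 20.6 and 15.9 CPM in estradiol libraries, against 14.4, 18.3 and 16.0 CPM in ethanol libraries. The groups overlapped, through estradiol replicate 3, and the log2 fold change was 0.28 (SE 0.118, edgeR adjusted p = 0.0828). Without that library it was 0.41 (edgeR adjusted p = 0.00836), without ethanol replicate 2 it was 0.38 (edgeR adjusted p = 0.0377), and with no filter on low counts 0.30 (edgeR adjusted p = 0.00398). Over all alternatives the adjusted p ran up to 0.336. Some reads are shared by near-identical genes, such as Acta2 and Actg2 or the regulatory light chains. The processing notes name kallisto but do not describe how it was set to divide such reads. Values of these genes are uncertain to that extent.

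Torin gave a mixed picture in the D6 arm. Of the 10 genes, 4 rose (Actg2, Cnn1, Oxtr and Acta2) and 1 fell (Mylk), where 39.1% of the 18112 genes tested were called, 19.8% higher and 19.3% lower. The median log2 fold change of the 10 was 0.42, against 0.05 over all genes. Groups did not overlap for 6 genes that were higher with Torin and 1 that was lower, and for 48.5% of all genes.

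Oxtr had 44.1, 41.5 and 43.3 CPM in Torin D6 libraries, against 31.1, 30.8 and 31.7 CPM in DMSO D6 libraries. Both groups were tight and well apart, with a log2 fold change of 0.46 (SE 0.115, edgeR adjusted p = 0.00736). Mylk had 13.8, 13.9 and 12.6 CPM in Torin D6 libraries, against 30.5, 28.3 and 29.4 CPM in DMSO D6 libraries. Every Torin library lay below every DMSO library, and the log2 fold change of -1.13 (SE 0.125, edgeR adjusted p = 2.57e-05) left 0.457 times the DMSO level. The receptor and the kinase of the same pathway were thus called in opposite directions.

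Cnn1 had 56.7, 48.7 and 52.4 CPM in Torin D6 libraries, against 23.1, 27.6 and 29.4 CPM in DMSO D6 libraries. The groups lay far apart, with a fold of 1.97 (log2 0.98, SE 0.207, edgeR adjusted p = 0.00286). Actg2 had 9.46, 6.65 and 9.91 CPM in Torin D6 libraries, against 4.24, 3.40 and 5.16 CPM in DMSO D6 libraries. It was higher in all 3 Torin libraries, with a fold of 2.03 (log2 1.02, SE 0.266, edgeR adjusted p = 0.00997). Acta2 had 595.8, 518.3 and 643.4 CPM in Torin D6 libraries, against 428.4, 469.2 and 452.0 CPM in DMSO D6 libraries. It rose by 0.38 on the log2 scale (SE 0.103, edgeR adjusted p = 0.0123), a call that was lost without DMSO D6 replicate 1 (log2 0.34, edgeR adjusted p = 0.0525). Over all alternatives the adjusted p was 0.00427 to 0.0525.

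The other 5 genes did not pass the threshold in D6. Tpm2 had 137.3, 107.9 and 209.9 CPM in Torin D6 libraries, against 96.4, 101.4 and 92.8 CPM in DMSO D6 libraries, and Tagln had 58.2, 48.0 and 126.6 CPM in Torin D6 libraries, against 52.5, 62.8 and 55.3 CPM in DMSO D6 libraries. For both, Torin replicate 3 was far above its partners. The log2 fold change of Tpm2 was 0.65 (SE 0.25, edgeR adjusted p = 0.0589), and 0.33 without that library (edgeR adjusted p = 0.238). Without Torin D6 replicate 2 it was 0.84 (edgeR adjusted p = 0.0174), and DESeq2 called the gene at 0.64 (adjusted p = 0.0378). That of Tagln was 0.45 (SE 0.277, edgeR adjusted p = 0.224), but -0.11 without Torin replicate 3 (edgeR adjusted p = 0.528) and 0.70 without replicate 2 (edgeR adjusted p = 0.0396). The adjusted p over all alternatives was 0.0174 to 0.238 for Tpm2 and 0.0396 to 0.528 for Tagln. Myl9 averaged 150.1 ± 16.5 CPM in Torin D6 and 125.7 ± 3.20 CPM in DMSO D6 libraries (SD, n = 3 each). Its groups did not overlap, and its log2 fold change was 0.26 (SE 0.132, edgeR adjusted p = 0.148). Lmod1 and Myh11 had 95% intervals of the log2 fold change of -0.75 to 0.57 and -0.44 to 0.47.

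In the D12 arm the oxytocin receptor rose by more than in D6, and the share of the 10 genes called was close to that of all genes. Oxtr rose and Mylk fell, 2 of the 10 genes, where 25.4% of all genes tested were called, 10.8% higher and 14.6% lower. The median log2 fold change of the 10 genes was 0.00, against 0.01 over all genes. Groups did not overlap for Oxtr, which was higher, and for Mylk and Actg2, which were lower, and for 43.7% of all genes.

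Oxtr had 60.4, 68.9 and 62.2 CPM in Torin D12 libraries, against 22.3, 29.1 and 20.6 CPM in DMSO D12 libraries. The lowest Torin library was above the highest DMSO library by a wide margin, and the fold was 2.66 (log2 1.41, SE 0.116, edgeR adjusted p = 8.15e-06). Mylk had 21.0, 16.4 and 16.0 CPM in Torin D12 libraries, against 24.0, 22.4 and 27.7 CPM in DMSO D12 libraries. The groups were close but did not overlap. The log2 fold change was -0.47 (SE 0.123, edgeR adjusted p = 0.0145), and the call was lost without DMSO D12 replicate 3 (-0.39, edgeR adjusted p = 0.0647) or without Torin D12 replicate 2 (-0.42, edgeR adjusted p = 0.062). Over all alternatives the adjusted p was 0.00255 to 0.0647.

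Several genes in D12 turned on single libraries. Cnn1 had 48.5, 35.7 and 39.1 CPM in Torin D12 libraries, against 23.5, 22.2 and 40.4 CPM in DMSO D12 libraries. Only DMSO replicate 3 reached into the Torin range: the log2 fold change was 0.52 (SE 0.206, edgeR adjusted p = 0.0892), and 0.85 without that library (edgeR adjusted p = 0.00303). Actg2 had 4.15, 3.71 and 3.53 CPM in Torin D12 libraries, against 4.49, 4.50 and 8.43 CPM in DMSO D12 libraries. The same DMSO library was high, and the log2 fold change was -0.61 (SE 0.267, edgeR adjusted p = 0.121) with it and -0.24 without it (edgeR adjusted p = 0.513). Tpm2 had 77.9, 62.4 and 123.9 CPM in Torin D12 libraries, against 114.4, 115.3 and 100.6 CPM in DMSO D12 libraries. Here Torin replicate 3 lay above DMSO and its partners below, with a log2 fold change of -0.32 (SE 0.249, edgeR adjusted p = 0.397). With replicate 3 of both Torin groups omitted, a choice made after the data were seen, Tpm2 fell (-0.63, edgeR adjusted p = 0.000537). The adjusted p over all alternatives was 0.00303 to 0.289 for Cnn1, 0.0906 to 0.513 for Actg2 and 0.000537 to 0.796 for Tpm2. Acta2 had 439.2, 408.4 and 527.6 CPM in Torin D12 libraries, against 436.6, 440.3 and 468.4 CPM in DMSO D12 libraries. The groups overlapped, and the 95% interval of the log2 fold change was -0.19 to 0.26. The intervals of Myl9 (-0.13 to 0.44), Tagln (-0.69 to 0.52), Myh11 (-0.12 to 0.78) and Lmod1 (-0.69 to 0.64) also held 0.

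**Figure D2:**
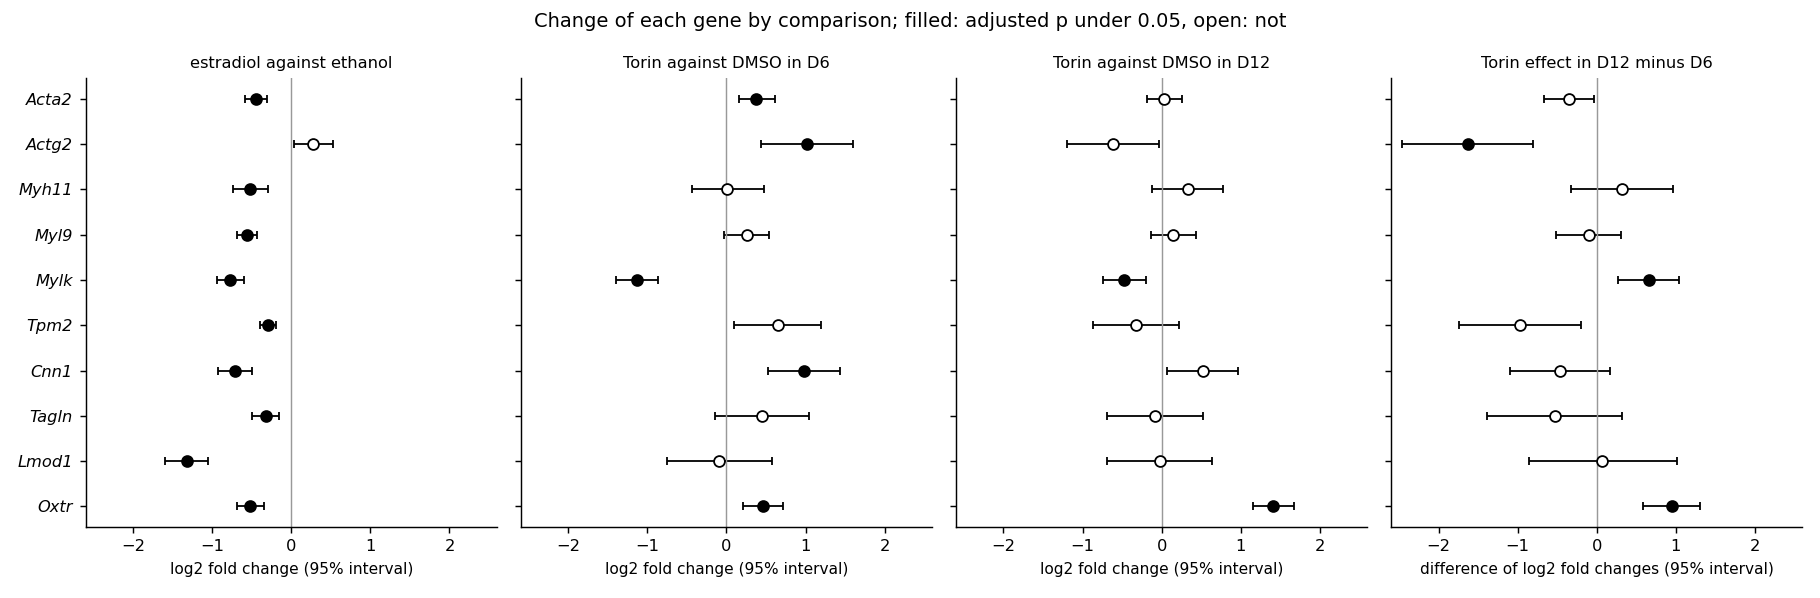
Log2 fold change of each gene with its 95% interval from the edgeR fit, for estradiol against ethanol and for Torin against DMSO in the D6 and D12 arms, and of the difference between the arms, with filled points past an adjusted p of 0.05. Lmod1 lies lowest under estradiol (-1.32), Oxtr highest under Torin in D12 (1.41), and Mylk is below 0 in all 3 treatment comparisons.

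The difference between the Torin effects of the arms was tested directly. It passed for 3 of the 10 genes, where 10.6% of all genes passed, 5.03% with a higher and 5.55% with a lower effect in D12. The effect in D12 minus that in D6 was 0.95 on the log2 scale for Oxtr (SE 0.162, edgeR adjusted p = 0.00322), with effects of 1.41 in D12 and 0.46 in D6. For Actg2 it was -1.63 (SE 0.377, edgeR adjusted p = 0.0175), with effects of -0.61 in D12 and 1.02 in D6. For Mylk it was 0.66 (SE 0.174, edgeR adjusted p = 0.0335), with effects of -0.47 in D12 and -1.13 in D6. The difference for Mylk lost its call in 9 of 20 alternatives, among them the omission of any DMSO D6 library, of DMSO D12 replicate 1 or 2, or of replicate 1 of either Torin group, with values of 0.53 to 0.75 and edgeR adjusted p up to 0.0889 over the libraries left out. Acta2 (-0.35, SE 0.146, edgeR adjusted p = 0.168) and Tpm2 (-0.97, SE 0.353, edgeR adjusted p = 0.114) did not pass. Without Torin D12 replicate 3 both did, Acta2 at -0.46 (edgeR adjusted p = 0.0334) and Tpm2 at -1.30 (edgeR adjusted p = 0.0175), and Tpm2 also did without Torin D6 replicate 2 (-1.17, edgeR adjusted p = 0.0453). The adjusted p over all alternatives was 0.0259 to 0.327 for Acta2 and 0.000655 to 0.229 for Tpm2.

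The solvent libraries of the arms differed little in these genes. In DMSO D12 against DMSO D6, 0 of the 10 genes passed in edgeR, and 0 in DESeq2 and limma, where 0.00552% of all genes, a single gene, passed in edgeR. At an unadjusted p under 0.05, 1 gene was lower, Oxtr, with a log2 fold change of -0.38 (SE 0.115, edgeR adjusted p = 1.0). Oxtr and Mylk had every DMSO D12 library below every DMSO D6 library, a separation seen in 12.2% of all genes in either direction. The lower Oxtr level of the DMSO D12 libraries thus enters its larger fold in that arm. Set against each other within the experiment, Oxtr means ran in the order 63.8 ± 4.48 CPM in Torin D12, 43.0 ± 1.32 CPM in Torin D6, 31.2 ± 0.451 CPM in DMSO D6 and 24.0 ± 4.52 CPM in DMSO D12 libraries (SD, n = 3 each), and no neighbouring groups overlapped. In the estradiol experiment they were 21.6 ± 1.93 CPM in estradiol and 31.0 ± 2.15 CPM in ethanol libraries. For Acta2, Torin D6 (585.8 ± 63.2 CPM) stood first, and Torin D12 (458.4 ± 61.9 CPM), DMSO D6 (449.9 ± 20.5 CPM) and DMSO D12 (448.4 ± 17.4 CPM) overlapped one another.

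Other genes of the contractile apparatus did not share one direction. Of 27 tested in the estradiol experiment, 7 rose and 7 fell, with a median log2 fold change of 0.01. Of 29 tested in the Torin experiment, 14 rose and 4 fell in D6 (median 0.30), and 3 rose and 8 fell in D12 (median 0.01). Over all genes tested, 17.4% rose and 16.6% fell with estradiol, 19.8% and 19.3% with Torin in D6, and 10.8% and 14.6% in D12. Tpm1, alpha tropomyosin, rose in all 3 comparisons: by 0.55 with estradiol (SE 0.0373, edgeR adjusted p = 4.38e-08), by 1.32 with Torin in D6 (SE 0.0665, edgeR adjusted p = 5.65e-08), and by 0.52 in D12, where it was not among the 3 genes of lowest p (SE 0.0656, edgeR adjusted p = 0.000157). Beta tropomyosin, Tpm2, fell where Tpm1 rose in the estradiol experiment. Pdlim3, a PDZ and LIM protein that binds alpha actinin, had log2 fold changes of -1.49, -2.02 and -1.46 in that order of comparisons and fell in all 3 (edgeR adjusted p at most 3.5e-05). Cnn2, a calponin of non-muscle cells, rose by 1.14 with Torin in D6 (edgeR adjusted p = 3.23e-07), and Smtn, smoothelin, fell by 0.90 with Torin in D12 (edgeR adjusted p = 5.65e-05). Myh14, a non-muscle myosin heavy chain, rose by 1.1 with estradiol (edgeR adjusted p = 5.18e-10).

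Among 21 regulators of actomyosin, 5 rose and 3 fell with estradiol, 4 rose and 3 fell with Torin in D6, and 1 rose and 4 fell in D12. These shares were close to those of all genes called, 34.0%, 39.1% and 25.4%. Prkg1, the cGMP-dependent kinase that relaxes smooth muscle, rose in all 3 comparisons, by 1.22 with estradiol (edgeR adjusted p = 5.57e-07), by 1.58 with Torin in D6 (edgeR adjusted p = 0.000193) and by 2.46 in D12 (edgeR adjusted p = 2.13e-05). Ppp1r14a, an inhibitor of the myosin phosphatase, fell by 1.79 with estradiol (edgeR adjusted p = 0.00173), and Calm2, a calmodulin gene, fell by 0.88 with Torin in D6 and by 0.58 in D12 (edgeR adjusted p = 3.4e-06 and 0.000178).

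The list of SRF and MRTF factors and their targets had 5 rising and 2 falling of 16 genes with estradiol, 8 and 1 with Torin in D6, and 2 and 3 in D12. Of all genes, 34.0%, 39.1% and 25.4% were called in these comparisons. In D6, 19.8% of all genes rose and 19.3% fell. The median log2 fold change of the list was 0.04, 0.33 and -0.02 in that order, against -0.01, 0.05 and 0.01 over all genes. Flna, filamin A, rose by 1.08 with Torin in D6 and by 0.90 in D12 (edgeR adjusted p = 3.27e-05 and 0.000265), whereas Itga5, an integrin chain, fell by 1.79 and 1.18 (edgeR adjusted p = 4.91e-06 and 0.000237). Actn1, alpha actinin 1, rose by 0.32 with estradiol (edgeR adjusted p = 1.65e-05) and Fhl2, a LIM domain protein, fell by 0.27 (edgeR adjusted p = 0.000276). Myocd, which encodes myocardin, had between 2 and 10 counts summed over the 3 libraries of each group, and Oxt, which encodes oxytocin, between 0 and 2.

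In oxytocin receptor signalling, 5 rose and 6 fell of 26 genes with estradiol, 6 and 6 with Torin in D6, and 6 and 8 in D12. The shares of all genes called were 34.0%, 39.1% and 25.4%. Arrb1, the arrestin that uncouples receptors of this kind, fell by 0.93 with estradiol (edgeR adjusted p = 7.88e-08) and by 2.64 with Torin in D6 (edgeR adjusted p = 1.74e-08). Avpr1a, a vasopressin receptor of the same family as Oxtr, had 0.99, 0.877 and 1.32 CPM in estradiol libraries, against 6.19, 4.20 and 4.18 CPM in ethanol libraries, with groups far apart and a log2 fold change of -2.19 (SE 0.24, edgeR adjusted p = 6.28e-06). Itpr2, a calcium release channel, fell by 0.62 with estradiol and by 1.55 with Torin in D6 (edgeR adjusted p = 7.99e-06 and 5.85e-06). Rgs4, which shortens Gq signals, rose by 1.47 with Torin in D12 (edgeR adjusted p = 0.000102), and Pla2g4a, a phospholipase, fell by 0.92 in D6 and 0.61 in D12 (edgeR adjusted p = 1.03e-06 and 5.99e-05).

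**Figure D3:**
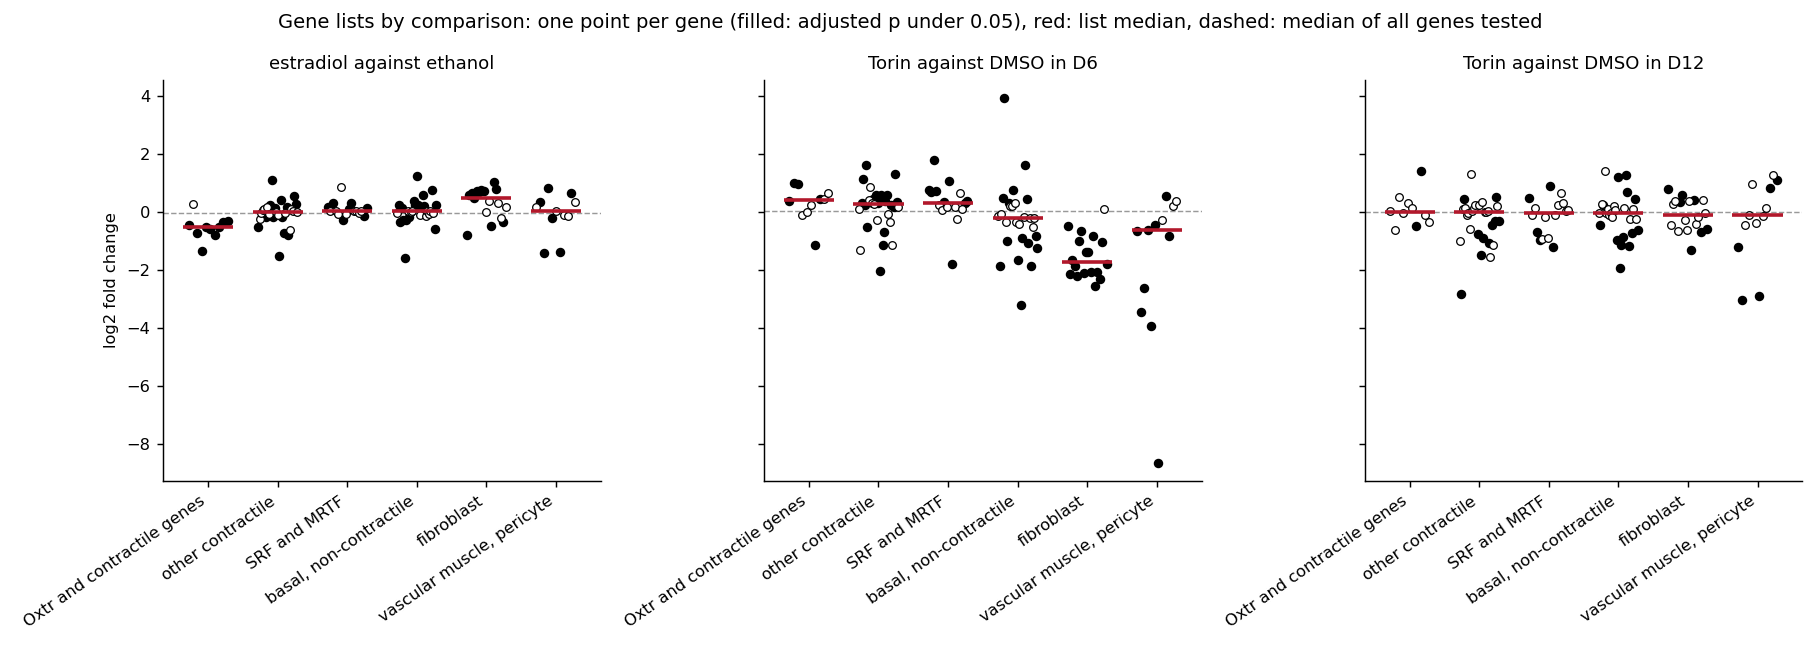
Log2 fold changes of the single genes of each list, 1 point per gene and filled where the edgeR adjusted p is under 0.05, with a red bar at the list's median and a dashed line at that of all genes tested, for estradiol against ethanol and Torin against DMSO in D6 and D12. Under estradiol the Oxtr and contractile genes have the median of -0.52 and the other contractile genes 0.01, and under Torin in D6 the fibroblast markers have -1.70.

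Markers of the myoepithelial layer outside the contractile apparatus, and of other cells that make smooth muscle actin, are given here beside these results, and their part in them was not tested. For every list of markers, the share of all genes called was 34.0% with estradiol, 39.1% with Torin in D6 and 25.4% in D12. Of the 27 other basal markers, 11 rose and 6 fell with estradiol, and their summed level was 15894.1 to 16635.4 CPM in estradiol and 15342.6 to 15875.4 CPM in ethanol libraries. Krt15, a basal keratin, rose by 1.24 (edgeR adjusted p = 1.94e-07) and Igfbp2, an IGF binding protein, fell by 1.58 (edgeR adjusted p = 1.09e-08). With Torin, 6 of the 27 rose and 9 fell in D6, with a summed level of 4914.5 to 6769.4 CPM in Torin and 7070.6 to 7432.6 CPM in DMSO libraries. In D12, 5 rose and 8 fell, with 6191.8 to 6792.1 CPM in Torin and 8055.5 to 8181.6 CPM in DMSO libraries. Krt5 fell by 3.19 in D6 and by 1.13 in D12 (edgeR adjusted p = 5e-09 and 1.52e-05). Other basal markers were divided. Col17a1 (log2 -1.84, edgeR adjusted p = 5.42e-07) and Vim (log2 -1.24, edgeR adjusted p = 1.39e-06) also fell in D6. Lamb3 (log2 -0.85, edgeR adjusted p = 7.63e-05) fell in D12. Lgr6 rose by 1.63 in D6 and by 1.3 in D12 (edgeR adjusted p = 5.2e-06 and 7e-05). Krt14 (log2 -0.33, edgeR adjusted p = 0.135) and Trp63 (log2 -0.19, edgeR adjusted p = 0.224) did not pass in D6. The median log2 fold change of the 27 was -0.19 in D6 and -0.02 in D12, against 0.05 and 0.01 over all genes. The 20 luminal markers had 6 rising and 9 falling with estradiol, 5 and 11 with Torin in D6, and 1 and 9 in D12.

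Of the fibroblast and myofibroblast markers, 9 rose and 3 fell of 17 tested with estradiol, but the sums overlapped, at 1995.6 to 2234.6 CPM in estradiol and 1992.9 to 2237.8 CPM in ethanol libraries. With Torin in D6, 0 rose and 17 of 18 fell, at 1388.0 to 1838.0 CPM in Torin and 2493.4 to 3035.1 CPM in DMSO libraries, while Acta2 rose. Col1a1, a chain of collagen I, fell there by 2.14 (edgeR adjusted p = 9.86e-07). In D12, 4 rose and 3 fell, with sums of 2227.2 to 3051.9 CPM in Torin and 2584.3 to 2691.7 CPM in DMSO libraries. Of 17 vascular smooth muscle and pericyte markers, 7 averaged under 1 CPM in each experiment, among them Abcc9 and Kcnj8, which mark pericytes. Of those tested, 3 rose and 3 fell of 11 with estradiol, 1 rose and 8 fell of 12 with Torin in D6, and 2 rose and 3 fell in D12. Ndufa4l2 had log2 fold changes of -1.37, -8.63 and -2.87 in that order, and Cox4i2 of -1.41, -3.43 and -3.03 (edgeR adjusted p at most 0.000526). Neither is among the 7 defining markers named below. Of those, Cspg4 rose with estradiol (0.83, edgeR adjusted p = 0.000234) but fell with Torin in D6 (-2.62, edgeR adjusted p = 6e-06). Pdgfrb rose with Torin in D12 (0.83, edgeR adjusted p = 0.00143). The whole list summed to 356.6 to 394.2 CPM in estradiol and 410.5 to 429.8 CPM in ethanol libraries, to 119.8 to 139.7 CPM in Torin D6 and 279.3 to 324.3 CPM in DMSO D6 libraries, and to 193.5 to 198.2 CPM in Torin D12 and 296.2 to 326.9 CPM in DMSO D12 libraries, lower with treatment in each pair and with no overlap. Its 7 defining markers (Rgs5, Pdgfrb, Notch3, Cspg4, Abcc9, Kcnj8 and Myocd) summed to 224.2 to 257.8 CPM in estradiol and 237.6 to 259.4 CPM in ethanol libraries, to 64.2 to 75.4 CPM in Torin D6 and 92.9 to 107.8 CPM in DMSO D6 libraries, and to 106.0 to 121.6 CPM in Torin D12 and 96.0 to 101.5 CPM in DMSO D12 libraries. The sum of the 7 was thus lower with Torin in D6, higher in D12 and overlapping with estradiol. Most of it in the estradiol experiment was Notch3, at 214.8 ± 14.9 CPM in estradiol and 230.0 ± 12.7 CPM in ethanol libraries (SD, n = 3 each).

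The genes whose pattern was most like that of Oxtr over the 12 Torin experiment libraries were sought among 10722 genes that averaged 5 CPM or more, by the root mean square difference in log2(CPM + 0.5) after centring each gene on its mean. The libraries share their treatment groups, so this is a description. The nearest 5 were Cxcl12, a chemokine (0.13), Matn4, a matrilin of the extracellular matrix (0.15), Pi15, a peptidase inhibitor (0.17), Hp, haptoglobin (0.17), and Dsel, an enzyme related to dermatan sulfate epimerase (0.18). Cxcl12 averaged 120.0 ± 4.10 CPM in Torin D6 and 82.7 ± 8.11 CPM in DMSO D6 libraries, and 170.9 ± 12.2 CPM in Torin D12 and 67.9 ± 4.37 CPM in DMSO D12 libraries (SD, n = 3 each), in the same order of groups as Oxtr. None of the other 9 genes was near: the closest, Cnn1, ranked 2443 from Oxtr at 0.49. For Acta2 the nearest 5 were Cnih1, a cargo receptor of the secretory pathway, Pabpc1, a poly(A)-binding protein, Uap1l1, Qars, a glutaminyl-tRNA synthetase, and Mrpl10, a mitochondrial ribosomal protein, each at 0.07. The difference was not scaled to the spread of each gene, so genes that varied little over the libraries lie near one another. Myl9 ranked 48 from Acta2 at 0.10, and of the other 8 genes the nearest, Tagln, ranked 3926.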

How the data were processed

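Polyadenylated RNA was sequenced from 18 libraries in 6 groups of 3. The build GRCm39 and the tools kallisto, DESeq2, Trim Galore, cutadapt, FastQC and MultiQC are named per the submitters' processing notes, without versions. The authors deposited estimated counts per gene for the estradiol experiment, of which 32.2% were not whole numbers and which were rounded here. Whole-number counts by gene symbol were deposited for the Torin experiment. The normalized signal that the authors deposited was used only in alternatives. Beyond the naming of kallisto, counting by strand and the treatment of shared reads are not described in the sources used here.

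Each experiment was fitted alone in R 4.3.3 with edgeR 4.0.16 (filterByExpr, TMM, quasi-likelihood test, Benjamini-Hochberg adjusted p under 0.05 over all genes tested), leaving 15358 and 18112 genes, with biological coefficients of variation of 5.27% and 20.2%. "Rose" and "fell" are used of genes past that threshold, log2 values are fold changes, and CPM is given as mean ± SD. The Torin fit held all 4 groups, and its arms share no libraries. Library totals were 20637765 to 28910688 counts, and the SD between libraries includes counting error.

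The 10 genes, the other gene lists and the tests were chosen with earlier results of these data known. Named were all 10 genes, and of each other list at most the 3 genes of lowest p per treatment comparison, beside 5 genes of like pattern for Oxtr and Acta2. Genes outside that rule (Oxt, Myocd, Notch3, Abcc9, Kcnj8, Krt14, Trp63, and values of named genes in further comparisons) are marker or ligand genes given as values.

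The alternatives tried were RLE size factors, DESeq2 1.42.0, a stricter filter (1 CPM in 3 libraries) or none, the replicate number as a block, gene-length factors, limma 3.58.1 on log2(signal + 1), a fit of the 2 compared groups alone, and each library left out.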

Additional observations from a re-analysis of the deposited data

Results flagged for a closer look

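Of the 10 genes, 3 were singled out because the effect of Torin differed between the arms by a test of the difference itself (edgeR interaction contrast, D12 minus D6, n = 3 libraries per group). Of all genes tested, 10.6% passed the same test. The difference in log2 fold change was 0.95 for Oxtr (SE 0.162, edgeR adjusted p = 0.00322), which was higher with Torin in all 3 libraries of both arms. For Actg2 it was -1.63 (SE 0.377, edgeR adjusted p = 0.0175), with all 3 Torin libraries above DMSO in D6 and all 3 below it in D12. The D12 change of Actg2 did not pass by itself (-0.61, edgeR adjusted p = 0.121). Without DMSO D12 replicate 3 it was -0.24 (edgeR adjusted p = 0.513). For Mylk the difference was 0.66 (SE 0.174, edgeR adjusted p = 0.0335), with all 3 Torin libraries below DMSO in both arms. The Mylk difference lost its call in 9 of 20 alternatives. The batch tag (6 or 12 days in the labels), length of treatment and its start cannot be told apart between the arms.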

How the results depend on the processing

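The 10 genes gave 770 values under alternatives, of which 742 kept their side of the threshold, 16 came to pass it and 12 ceased to pass it. Of the 742, 712 kept their sign and 30 changed it, all 30 of values that did not pass the threshold. Over all alternatives 9 to 10 of the 10 genes were called for estradiol, beside 3575 to 5282 of all genes, and 4 to 7 for Torin in D6, beside 5595 to 7649 of all genes. With replicate 3 of both Torin groups omitted, chosen after the data were seen, 4 of the 10 genes and 6581 of all genes passed in D12, against 2 and 4592 with all libraries, and 5 of the 10 genes and 3308 of all genes passed in the difference between arms, against 3 and 1917. With single libraries left out, 1 to 2 of the 10 genes passed in D12, beside 3261 to 4634 of all genes. In the difference 2 to 5 of the 10 genes passed, beside 1219 to 2307 of all genes, the lowest without DMSO D6 replicate 3. In DMSO D12 against D6, 1 of all genes passed in edgeR, 13 with DESeq2, 4 with no filter on low counts and 16 with a fit of these groups alone. Deviations of libraries with the same replicate number correlated at -0.0267 to -0.00972 in the estradiol and -0.0939 to 0.0931 in the Torin experiment. No correlation was computed between libraries with different numbers, so these values cannot settle whether the numbers pair libraries. With the replicate number as a block, 9, 5, 2, 2 and 0 of the 10 genes passed for estradiol, Torin D6, Torin D12, their difference and DMSO, and Mylk lost its call in the difference (0.65, edgeR adjusted p = 0.0536). Without the block, 34.0%, 39.1%, 25.4%, 10.6% and 0.00552% of all genes passed in that order of comparisons. Counts per library of Actg2 and Lmod1 lay between 76 and 503, so counting error is larger for these than for Acta2, with 8405 or more.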
